A study of Mus musculus with 14 samples.

Results

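Broad peaks of H3K27me3 that stood outside dense clusters of peaks were examined in mouse embryonic stem cells (mESCs). From a list of 74458 peaks, those on the 19 autosomes were kept that spanned at least 2000 bp from start to stop and did not lie in a cluster of 10 or more peaks joined across gaps of at most 5000 bp. The rule found 2174 broad peaks, 2.98% of the 72851 autosomal peaks and 97.1% of the 2240 autosomal peaks of that width. The other 66 broad peaks lay in dense clusters, and 68895 narrower peaks lay outside them. Cut&Tag, in which a transposase is brought to antibody-bound chromatin, had been run on G4 mESCs of a 129/Sv × C57BL/6 F1 hybrid background, grown with leukemia inhibitory factor on CD1 feeder cells. All cells compared here carried a homozygous CRISPR deletion of a Polycomb loop anchor, at Hoxa in 3 H3K27me3 libraries, at Wnt6 in 2 and at Hmx1 in 2, so that each deletion served as control for the others and cells without a deletion were not analysed here. Each deletion is described as a clone, and a difference between deletions cannot then be told apart from one between clones. Replicates are not stated to be separate cultures, and p-values measure only the spread between these libraries.

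H3K27me3 is placed on histone H3 by Polycomb repressive complex 2, and marks genes that are kept silent until a later stage of development. In mESCs the mark gathers at promoters rich in CpG dinucleotides, many of which belong to transcription factors, signaling molecules and genes of differentiated neurons. The longest tracts, such as the Hox clusters, break into many neighboring peaks, whereas many other genes with the mark carry an isolated domain around the start.

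An annotated start of a protein-coding gene lay in 1113 of the 2174 broad peaks (51.2%). The start positions came from a RefSeq promoter table of assembly GRCm38.p6, which gave 20084 starts of 16456 of the 20661 autosomal protein-coding genes, so this is a lower limit. Within broad peaks 1287 starts of 1126 genes were found. The 250 bases before the start of 7 genes are shown 5′ to 3′ on the strand of the gene, with each CG in capitals, to compare broad peaks whose level differed among deletions (Nr2f6, Tcea3, Rnpepl1), wide and strong peaks that were not called (Dio3, Ihh, Irs1) and a peak with few CG (Oxct2a). In GRCm38.p6 the sequence of Nr2f6 lies at chr8:71381953-71382202 on the minus strand, that of Tcea3 at chr4:136247707-136247956 on the plus strand, that of Rnpepl1 at chr1:92910575-92910824 on the plus strand, that of Dio3 at chr12:110278980-110279229 on the plus strand, that of Ihh at chr1:74951673-74951922 on the minus strand, that of Irs1 at chr1:82291440-82291689 on the minus strand and that of Oxct2a at chr4:123323680-123323929 on the minus strand.
Nr2f6: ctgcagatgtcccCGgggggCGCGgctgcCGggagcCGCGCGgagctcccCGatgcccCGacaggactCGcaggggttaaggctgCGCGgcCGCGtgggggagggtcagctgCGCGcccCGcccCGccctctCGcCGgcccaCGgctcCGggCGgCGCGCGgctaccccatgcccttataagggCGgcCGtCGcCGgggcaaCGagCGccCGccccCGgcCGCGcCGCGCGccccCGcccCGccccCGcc
Tcea3: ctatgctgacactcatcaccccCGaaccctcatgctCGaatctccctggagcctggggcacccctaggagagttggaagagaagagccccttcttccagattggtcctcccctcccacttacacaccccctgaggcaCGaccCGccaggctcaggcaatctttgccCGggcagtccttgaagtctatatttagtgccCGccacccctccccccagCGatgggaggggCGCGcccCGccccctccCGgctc
Rnpepl1: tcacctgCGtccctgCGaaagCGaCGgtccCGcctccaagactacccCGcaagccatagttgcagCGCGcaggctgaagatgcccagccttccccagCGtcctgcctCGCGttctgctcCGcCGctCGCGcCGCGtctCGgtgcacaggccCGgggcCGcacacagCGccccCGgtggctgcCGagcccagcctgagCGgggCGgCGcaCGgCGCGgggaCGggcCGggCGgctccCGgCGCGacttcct
Dio3: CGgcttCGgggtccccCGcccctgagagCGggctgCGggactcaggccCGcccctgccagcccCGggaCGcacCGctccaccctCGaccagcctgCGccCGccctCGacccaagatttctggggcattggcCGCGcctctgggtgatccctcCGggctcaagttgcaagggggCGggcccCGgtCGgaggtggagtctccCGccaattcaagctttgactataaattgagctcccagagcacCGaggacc
Ihh: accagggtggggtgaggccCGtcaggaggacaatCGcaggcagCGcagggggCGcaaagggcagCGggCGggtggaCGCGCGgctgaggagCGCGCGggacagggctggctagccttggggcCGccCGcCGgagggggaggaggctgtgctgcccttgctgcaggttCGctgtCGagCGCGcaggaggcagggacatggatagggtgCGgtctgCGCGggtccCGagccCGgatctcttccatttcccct
Irs1: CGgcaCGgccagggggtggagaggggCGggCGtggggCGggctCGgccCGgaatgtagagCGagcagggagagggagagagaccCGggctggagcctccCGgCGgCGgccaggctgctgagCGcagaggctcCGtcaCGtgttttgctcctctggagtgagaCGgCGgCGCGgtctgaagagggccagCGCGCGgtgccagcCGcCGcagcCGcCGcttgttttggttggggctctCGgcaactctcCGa
Oxct2a: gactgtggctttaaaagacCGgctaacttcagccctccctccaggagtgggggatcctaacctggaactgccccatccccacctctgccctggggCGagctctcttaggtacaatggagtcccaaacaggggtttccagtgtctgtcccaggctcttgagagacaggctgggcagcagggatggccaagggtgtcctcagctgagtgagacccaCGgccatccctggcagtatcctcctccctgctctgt
The number of CG in these 250 bases was 42 at Nr2f6, 35 at Rnpepl1, 28 at Irs1, 24 at Ihh, 21 at Dio3, 11 at Tcea3 and 3 at Oxct2a. The sequences of Nr2f6 and Rnpepl1 thus held more CG than those of the wide peaks, and Oxct2a, the gene of a ketone body enzyme of the testis, held the fewest. Dio3 also held TATAAA once on either strand, and the other 6 did not. All 250 bases printed lay inside the peak at each of the 7 genes.

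Over all starts, those in broad peaks had a median of 24 CG in 300 bases (250 before and 50 after the start), against 22 for starts in narrower peaks outside clusters and 4 for the 9455 starts in no peak. The ratio of observed to expected CG had a median of 0.747 in broad peaks, 0.766 in narrower peaks and 0.247 in no peak. A CG-rich promoter, defined by a ratio over 0.6 with over 50% G+C, was found at 72.4% of starts in broad peaks, 71.2% in narrower peaks, 18.1% in no peak and 46.2% of all 20084. Broad and narrower peaks were therefore close to each other in CG content, and both stood apart from starts without a peak. The letters TATAAA, searched on both strands, occurred in 7.30% of promoters in broad peaks, 5.29% in narrower peaks and 12.7% of all promoters. The letters GGGCGG, also on both strands, occurred in 73.3%, 69.8% and 47.0%. These are descriptions of the sequence, and starts of 1 gene can overlap.

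**Figure D1:**
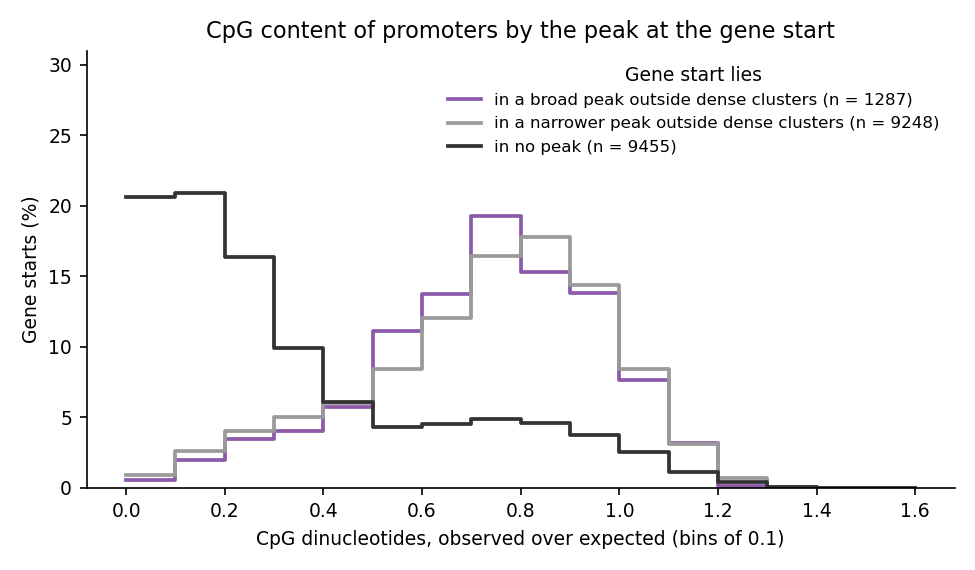
Observed over expected CpG dinucleotides (x axis, bins of 0.1) in 300 bases around gene starts, as percent of starts (y axis), for starts in broad peaks outside dense clusters, in narrower peaks outside them and in no peak. The first 2 curves overlap, with medians of 0.747 and 0.766, and starts in no peak lie lower, with a median of 0.247.

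Broad peaks covered the start of the gene and extended into the gene. For the 964 broad peaks with exactly 1 start position, the peak reached a median of 774 bp upstream and 1707.5 bp downstream of the start. The center lay downstream in 762 of them (79.0%), at a median of 471 bp (quartiles 79.8 and 789 bp). The peaks at Evx1, a homeobox gene next to the Hoxa cluster, and Pcdh8, a protocadherin gene, showed this form: they reached 86 and 138 bp upstream, and 4592 and 3871 bp downstream. Dio3, which inactivates thyroid hormone and is imprinted, had the opposite form, with 3972 bp upstream and 1509 bp downstream. Overlap with the body of a protein-coding gene was found for 1980 broad peaks (91.1%), and 104 lay outside any annotated gene. In 28 broad peaks starts of different genes lay on opposite strands.

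**Figure D2:**
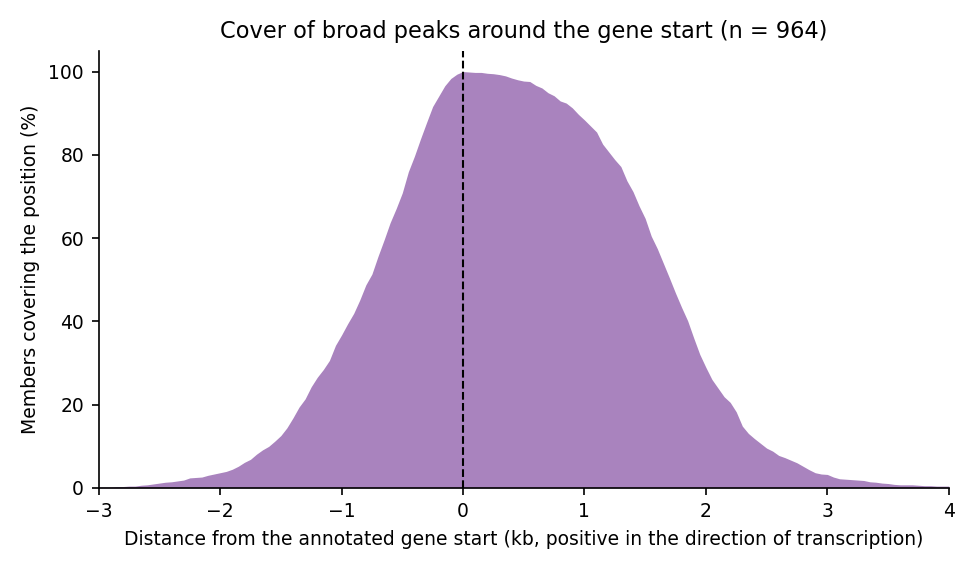
Percent of 964 broad peaks with exactly 1 annotated gene start that cover each position (y axis) at a distance from that start in kb, positive in the direction of transcription (x axis). The cover is asymmetric, with a median reach of 774 bp upstream and 1707.5 bp downstream.

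Most broad peaks were just past the width minimum. The median width was 2414 bp (range 2000 to 5481 bp), and 1226 (56.4%) were under 2500 bp. At the limit of the rule, the 6 narrowest, of 2000 bp (Dgkz, Ecpas, Klhdc7a, Kcna7, Ferd3l and Mapre2), had mean levels between 22.9 and 127.8 CPM, which are counts scaled to an effective library total of 1000000, and the 5 peaks of 1999 bp left out (Adap1, Dchs1, C2cd4a, Kcnj4 and Mocos) between 15.2 and 186 CPM. Similarly, the 28 broad peaks in clusters of 9 peaks had a median of 52.8 CPM per kb of width, and the 17 in clusters of 10, left out, had 55.4. The 5 widest lay at Dio3 (5481 bp), Mn1 (5333 bp), Irs2 (5244 bp), Cabp7 (5138 bp) and Irs1 (5050 bp). Mn1 encodes a transcriptional coregulator, and Irs1 and Irs2 are substrates of the insulin receptor.

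No neighbor within the joining gap was found for 957 broad peaks (44.0%), and 523 had 1 neighbor. The level per kb rose with neighbors, from a median of 42.6 CPM per kb for isolated peaks to 51.3 with 1 neighbor, 55.1 with 2 to 4 and 55.4 with 5 to 8. It rose with width too, from 43.5 CPM per kb for those under 2500 bp to 64.8 for those of at least 4000 bp. Across the 2174 broad peaks the Spearman correlation of width with CPM was 0.476, and with CPM per kb 0.204. Width comes from the calling of peaks on signal, so that width and level are not independent. A start was annotated in 57.7% of isolated broad peaks and in 36.4% of those with 5 to 8 neighbors.

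The totals over all peaks ranged from 6016500 to 36563541 counts per library, and the median broad peak held between 721.5 and 4411 counts in a library, so that counting error was small. All 2174 broad peaks passed the filter on low counts. Between 0.0931% and 0.540% of the level seen without the respective deletion was left in the deleted stretches. The stretches were chr6:52163046-52274461 for Hoxa, chr1:74768523-74901291 for Wnt6 and chr5:35382872-35401827 for Hmx1. In them lay 3 broad peaks, which were left out of all counts of changes, which leaves 2171.

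Broad peaks held a large share of all counts in every library. They covered 5.58 Mb, or 11.9% of the autosomal peak bases, and the share of autosomal counts in them had a mean of 28.7% (SD 0.452, n = 3) with the Hoxa deletion, 29.0% (SD 0.852, n = 2) with Wnt6 deleted and 29.3% (SD 0.455, n = 2) with Hmx1 deleted. The share ranged from 28.3% to 29.6% over the 7 libraries, and no difference between deletions was detected (p = 0.533, exact permutation test of the F statistic over 210 assignments, smallest p possible 0.00952). The median level was 50.1, 47.3 and 46.7 CPM per kb in replicates 1 to 3 of the Hoxa deletion, 51.5 and 45.8 in those of the Wnt6 deletion, and 48.4 and 49.8 in those of the Hmx1 deletion. The library values overlapped among deletions.

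**Figure D3:**
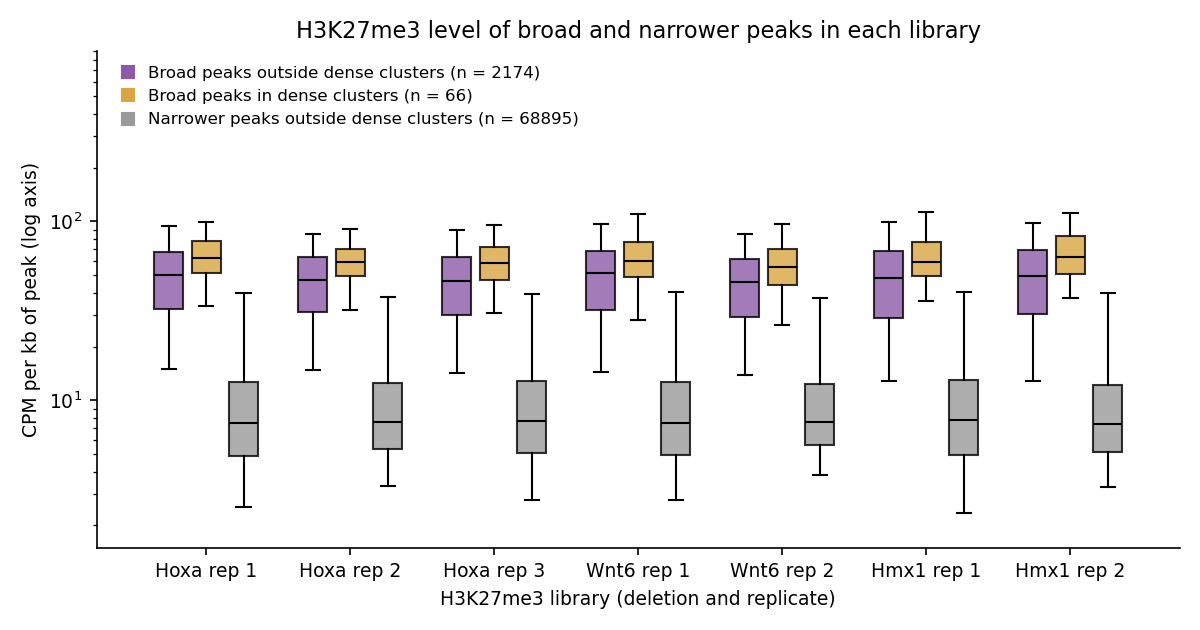
CPM per kb of peak (y axis, log scale) in each of the 7 libraries (x axis) for 2174 broad peaks outside dense clusters, 66 broad peaks in dense clusters and 68895 narrower peaks outside them. Boxes give the quartiles with the median and whiskers the 5th and 95th percentile over peaks. In every library the median of the broad peaks lies well above that of the narrower ones and below that of the broad peaks of dense clusters.

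By median level per kb, broad peaks were stronger than narrower peaks and weaker than broad peaks of dense clusters. The difference in the median log2 CPM per kb from narrower peaks was 2.68 ± 0.08 (SD, n = 7 libraries), a 6.41-fold level, and it was higher in 7 of 7 libraries. Since the rule selects by width, which comes from the calling of peaks on signal, this is a description with no test. Without division by width the difference was 5.09. Against the 66 broad peaks in dense clusters the difference was -0.30 ± 0.04 (SD, n = 7), lower in 7 of 7 libraries (adjusted p = 0.0156, exact sign-flip test, two-sided, 3 comparisons computed). With 7 libraries this is the smallest p that the test can give. Clusters too come from the calling of peaks on signal. The test takes the 66 peaks as fixed, so p does not measure the spread over peaks. The quartile ranges of both groups overlapped in every library.

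The strongest broad peak, with a mean of 996 CPM over the 7 libraries, lay at chr17:39843033-39846670 over Rn18s-rs5, a ribosomal RNA sequence. Ribosomal RNA genes occur in many copies, and reads of such copies are uncertain as to their origin. Its values were 975, 845 and 956 CPM in the Hoxa deletion, 1106 and 838 in the Wnt6 deletion, and 1219 and 1031 in the Hmx1 deletion. The next strongest were at Pcdh8, with 386 to 475 CPM over the libraries, and Mn1, with 400 to 447 CPM. Adra2c, an adrenergic receptor gene, had 362 to 444 CPM, and Chst2, a carbohydrate sulfotransferase gene, 348 to 417 CPM. Adamts2, which trims procollagen, had 335 to 392 CPM and Dio3 346 to 412 CPM. At these 7 peaks no contrast passed the edgeR test, although both Hmx1 libraries were above all others at Pcdh8, Adra2c and Chst2. Trim67, Rasd2 and the peak over Fbxl8 and Hsf4 complete the 10 strongest, and all 3 are on chromosome 8.

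Genes of development and of neurons were often overlapped by broad peaks, and 5 lists of such genes accounted for 245 of the 2174 broad peaks (11.3%). Over the autosomes, 1976 of 20661 protein-coding genes (9.56%) were overlapped by a broad peak. By list, this held for 79 of 126 genes of neuronal channels and receptors (62.7%), 44 of 92 signaling genes (47.8%), 64 of 138 developmental transcription factors without a homeobox (46.4%) and 38 of 118 homeobox genes outside the Hox clusters (32.2%). It also held for 15 of 60 imprinted genes (25%) and for 5 of 39 Hox genes (12.8%), of which 7 others had a broad peak in a dense cluster and 27 narrower peaks alone. The lists differ in gene length, which bears on overlap, and its part was not tested.

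Among neuronal genes the strongest were Adra2c, Grin2a, Kcnc4 and Grm4. Grin2a encodes a subunit of the NMDA glutamate receptor and had 334 to 398 CPM over the libraries. Kcnc4, of a voltage-gated potassium channel, had 282 to 335 CPM, and Grm4, of a metabotropic glutamate receptor, 287 to 333 CPM. The strongest developmental transcription factors were Sox17, a factor of endoderm, with 285 to 358 CPM, Prdm13 with 281 to 348 CPM and Insm2 with 259 to 342 CPM. Of the homeobox genes, Evx1 had 289 to 331 CPM, Barx2 249 to 303 CPM and Emx1, of the forebrain, 245 to 299.6 CPM. Signaling ligands were led by Ihh, a hedgehog, with 316 to 373 CPM, followed by Wnt10b with 235 to 274 CPM. The imprinted genes with the next strongest peaks after Dio3 were Cdkn1c, an inhibitor of the cell cycle, with 254 to 298 CPM, Kcnk9 with 249 to 289 CPM and Ascl2 with 206 to 277 CPM. The Hox genes with a broad peak outside dense clusters had lower values: Hoxd1 had 144 to 172 CPM, Hoxb13 122 to 152 CPM, Hoxb1 91.3 to 107 CPM and Hoxc4 46.1 to 72.4 CPM.

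Genes active in mESCs seldom had such a peak. A broad peak overlapped 1 of 26 pluripotency genes, Prdm14, with 111 to 136 CPM in the Hoxa deletion, 81.3 and 95.7 in the Wnt6 deletion and 86.7 and 101 in the Hmx1 deletion, and none of 30 housekeeping genes. The median of the strongest peak on each gene was 3.81 CPM over the pluripotency genes, 0 over the housekeeping genes, of which 16 had no peak, and 132 over the homeobox genes outside the Hox clusters. Of 20 fibroblast genes, which could mark feeder cells, 5 had a broad peak, led by Twist2 and Twist1 with 233 to 266 and 187 to 222 CPM. Of 31 genes of Polycomb subunits in the annotation, 2 had one, Pcgf5 with 173 to 203 CPM and Phf19 with 62.6 to 86.8 CPM.

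Several broad peaks covered microRNA genes. In 14 of them lay a microRNA locus of the RefSeq table. For 3 peaks with no protein-coding gene, chosen after their values were seen, a mature sequence is shown 5′ to 3′, with the seed (bases 2 to 8) in capitals, since the microRNA is what names the peak. In GRCm38.p6 mmu-miR-137-3p lies at chr3:118433901-118433923 on the plus strand, mmu-miR-193a-3p at chr11:79712009-79712030 on the plus strand and mmu-miR-203-3p at chr12:112130927-112130948 on the plus strand.
mmu-miR-137-3p: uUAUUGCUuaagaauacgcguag
mmu-miR-193a-3p: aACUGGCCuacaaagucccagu
mmu-miR-203-3p: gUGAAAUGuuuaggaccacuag
The 3 seeds differ from one another. The peak over Mir203, a microRNA of skin, had 151 to 183 CPM over the libraries, that over Mir193a 122 to 153 CPM and that over Mir137, a microRNA of neurons, 64.4 to 73.8 CPM. The libraries of the deletions overlapped at Mir203 and Mir193a, and both Hmx1 libraries were above all others at Mir137. A further peak with no protein-coding gene, over Mir7671, is named after its values were seen. It had 27.9, 27.2 and 24.4 CPM in the Hoxa deletion and 16.1 to 19.3 CPM in the other libraries. Its log2 fold change in the Hoxa contrast was 0.57, under the minimum.

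Broad peaks varied little between replicates. The SD of log2 CPM within deletions, pooled over the 3 deletions, had a median of 0.0899 over 2171 broad peaks, against 0.263 for narrower peaks outside clusters and 0.1003 for broad peaks in clusters. With counts downsampled to the smallest library the values were 0.115, 0.439 and 0.128. Downsampling evens out the libraries but not the peaks. The median over all peaks was between 23 and 148 counts in a library, against 721.5 to 4411 over broad peaks. The part of counting error in these differences was not tested. The SD fell with level, from a median of 0.1003 in the 544 broad peaks with the lowest CPM to 0.0859 in the 544 with the highest. By deletion, the median was 0.0720 for Hoxa, 0.112 for Wnt6 and 0.0580 for Hmx1.

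The smallest within-deletion SD was at Mgat5b, a glycosyltransferase gene of the brain (SD 0.0121). Its values were 62.8, 62.1 and 63.5 CPM in the Hoxa deletion, 63.7 and 63.9 in the Wnt6 deletion, and 47.3 and 47.1 in the Hmx1 deletion. The Hmx1 libraries were below all others, and the log2 fold change was -0.42 ± 0.10 (SE) with an edgeR adjusted p of 0.00580. Oxct2a (SD 0.0121) had 82.2 to 93.2 CPM over the libraries and Ly6h, of the Ly6 family (SD 0.0180), 237 to 269 CPM. The largest SDs were 0.323 at a peak 259 kb from Diaph3, 0.318 at a peak 179 kb from Pou3f1 and 0.288 at Cped1. Both distant peaks were weak, with 13.98 to 27.4 and 9.46 to 19.5 CPM. Cped1 had 43.1, 40.5 and 27.1 CPM in the Hoxa deletion and 31.3 to 40.3 CPM in the other libraries.

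Changes across the 3 deletions were then tested. Each deletion was compared with the mean of the other 2 by the quasi-likelihood test of edgeR, fitted to the whole table, with Benjamini-Hochberg adjustment over 74350 tested peaks outside the stretches. Peaks with an adjusted p under 0.05 and a log2 fold change beyond 1 in size were called. The 3 contrasts use the same 7 libraries and are not independent of each other. A lower level can stem, among other sources, from fewer cells with the mark or less of the mark per cell, and these cannot be told apart.

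In the Hoxa deletion 6 of 2171 broad peaks were called, or 0.276%, where 1.53% of all tested peaks were called. Of these, 3 were higher and 3 lower, where 0.625% and 0.907% of all tested peaks were. In the Wnt6 deletion 0 were called, where 0.0551% of all tested peaks were (0.0323% higher and 0.0229% lower). In the Hmx1 deletion 0 were called, where 0.171% were (0.0511% higher and 0.12% lower). Beside these counts of 0, 290 and 466 broad peaks had an unadjusted edgeR p under 0.05 in the Wnt6 and Hmx1 contrasts, and DESeq2 called 0 in both. The F test of any difference among the 3 deletions called 11 broad peaks, with a change over 1 between the highest and lowest deletion, where 1.92% of all tested peaks were called. Without Hmx1 deletion replicate 2 that count was 19.

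The low counts went with small fold changes at broad peaks that were measured with small error. The median absolute log2 fold change over broad peaks was 0.07 in the Hoxa and Wnt6 contrasts and 0.09 in the Hmx1 contrast, against 0.22, 0.16 and 0.19 over all tested peaks. The median standard errors were 0.08, 0.08 and 0.09 over broad peaks, and 0.22, 0.23 and 0.25 over all tested peaks. Both are near the changes themselves, so the comparison does not show that other peaks changed more. The 95% interval of the log2 fold change lay within -1 and 1 for 99.2%, 99.9% and 99.7% of broad peaks in the Hoxa, Wnt6 and Hmx1 contrasts. For narrower peaks outside clusters this held for 78.3%, 82.0% and 76.5%.

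The largest change was at Nod1, which encodes a cytosolic sensor of bacterial cell walls. The peak at chr6:54942986-54945266, 2669 kb from the Hoxa stretch on the same chromosome, had 26.7, 27.6 and 31.6 CPM in the Hoxa deletion, 102.5 and 94.5 in the Wnt6 deletion, and 104 and 108 in the Hmx1 deletion. All 3 Hoxa libraries were below all others. The log2 fold change was -1.83 ± 0.09 (SE), a 3.55-fold lower level, with an edgeR adjusted p of 1.74e-25. In the Hmx1 contrast, which shares these libraries, its log2 fold change was 0.998, just under the minimum.

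Prag1 and Nr2f6, the other broad peaks called lower in the Hoxa deletion, are on chromosome 8. Prag1, of a pseudokinase, at chr8:36093760-36095861 had 56.7, 55.4 and 54.4 CPM in the Hoxa deletion, 126 and 109 in the Wnt6 deletion, and 123 and 130.3 in the Hmx1 deletion, which gave a log2 fold change of -1.14 ± 0.08 (SE) with an edgeR adjusted p of 2.53e-17. Nr2f6, of an orphan nuclear receptor, at chr8:71379955-71382354 had 23.7, 20.02 and 19.4 CPM, against 50.2 and 48.5, and 47.8 and 44.0. The Hoxa libraries were below all others at both. The log2 fold change of Nr2f6 was -1.19 ± 0.10 (SE) with an edgeR adjusted p of 2.23e-14. With the median of each chromosome removed in each library the values were -0.57 at Prag1 and -0.62 at Nr2f6, and neither was called.

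Notum, Zbtb7b and Tcea3 were called higher in the Hoxa deletion. Notum, an enzyme that inactivates Wnt proteins, at chr11:120658811-120661396 had 107, 108 and 98.9 CPM in the Hoxa deletion, 45.2 and 40.4 in the Wnt6 deletion, and 40.9 and 44.0 in the Hmx1 deletion. All Hoxa libraries were above all others, with a log2 fold change of 1.30 ± 0.08 (SE) and an edgeR adjusted p of 7.73e-20. Zbtb7b, a zinc finger factor of T cell fate, at chr3:89390746-89393250 had 47.0, 50.6 and 44.7 CPM, against 20.1 and 23.3, and 19.6 and 21.4, with a log2 fold change of 1.16 ± 0.10 (SE) and an edgeR adjusted p of 2.57e-14. Tcea3, a transcription elongation factor, at chr4:136247688-136250227 was weaker. It had 26.7, 25.6 and 24.3 CPM, against 12.7 and 12.2, and 13.4 and 10.2, with a log2 fold change of 1.11 ± 0.12 (SE) and an edgeR adjusted p of 1.46e-10. Without Hmx1 deletion replicate 2 its log2 fold change was 0.98, under the minimum. The promoter sequences of Nr2f6 and Tcea3 shown above hold 42 and 11 CG, so peaks of both kinds were called.

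The F test added Tenm4, Klhl42, Rnpepl1, Bbc3 and a peak near Cabp1, which were named after their values were seen. Tenm4, a teneurin of neuronal contacts, at chr7:96209777-96212085 had 85.6, 78.6 and 83.3 CPM in the Hoxa deletion, 36.2 and 38.4 in the Wnt6 deletion, and 65.7 and 56.7 in the Hmx1 deletion. The Wnt6 libraries were lowest, with a log2 fold change of -0.91 ± 0.10 (SE) in the Wnt6 contrast and an edgeR adjusted p of 2.02e-10. The other 4 were highest in the Hoxa deletion, intermediate in the Wnt6 deletion and lowest in the Hmx1 deletion. The libraries of the 3 deletions did not overlap at any of these 4, which were called on these same libraries.

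Klhl42, an adaptor of a ubiquitin ligase, showed the order with little spread. It had 49.0, 51.8 and 52.4 CPM in the Hoxa deletion, 33.1 and 33.0 in the Wnt6 deletion, and 21.0 and 22.6 in the Hmx1 deletion, a 2.32-fold difference between the outer deletions (edgeR adjusted p of the F test 1.22e-11). In downsampled counts its range on the log2 scale was 0.92 and the call was lost. Bbc3, which promotes apoptosis, had 40.3, 43.6 and 41.5 CPM, then 29.6 and 30.3, then 21.5 and 17.9 (edgeR adjusted p 2.76e-09). Rnpepl1, an aminopeptidase homolog, had 65.9, 65.5 and 70.5 CPM, then 49.7 and 45.9, then 25.9 and 35.9 (edgeR adjusted p 5.14e-10). The range between the outer deletions on the log2 scale fell to 0.91 at Rnpepl1 without Hmx1 deletion replicate 1 and to 0.96 at Bbc3 without replicate 2, and the calls were lost. The peak 9550 bp from Cabp1, a neuronal calcium-binding protein, had 20.5, 22.01 and 16.4 CPM, then 12.3 and 10.3, then 8.11 and 9.01 (edgeR adjusted p 1.98e-07). The stronger broad peak on Cabp1 itself, with a log2 range of 0.80 that was not called, had the same order (edgeR adjusted p 1.76e-08), with 139, 139 and 135 CPM, then 113 and 94.9, then 75.5 and 81.9.

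**Figure D4:**
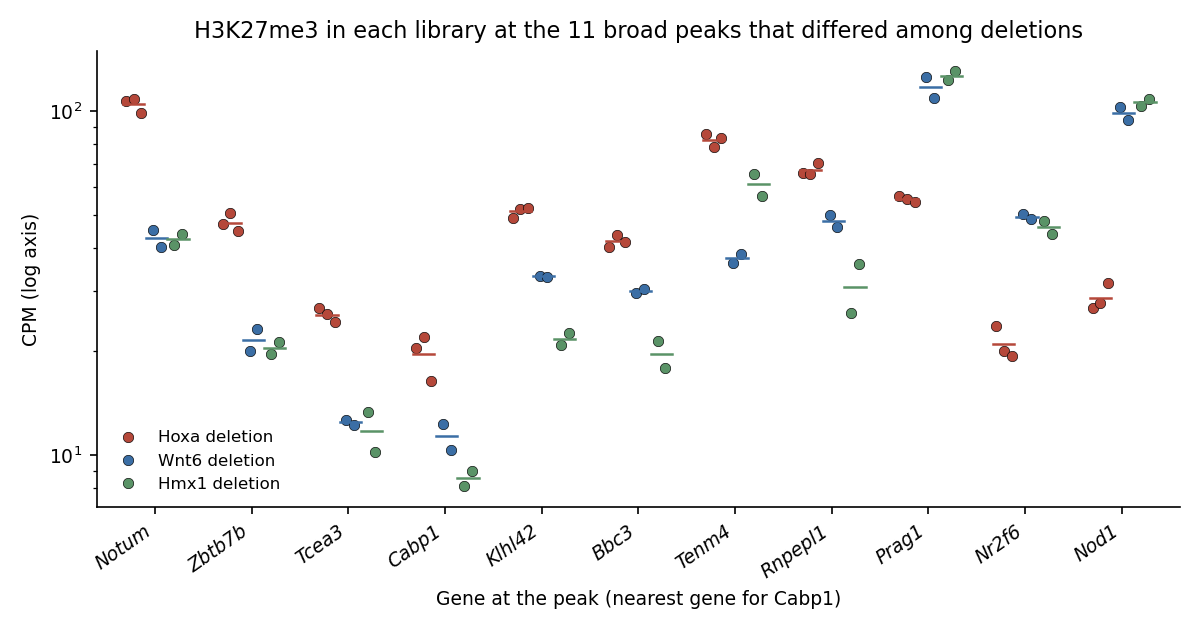
CPM (y axis, log scale) in each of the 7 libraries at the 11 broad peaks that differed among the 3 deletions, named by gene (x axis); points are libraries and lines the mean of a deletion. The Hoxa libraries are above all others at 8 peaks and below all others at Prag1, Nr2f6 and Nod1. The peaks were called on these same libraries, so this separation is no independent support. Outside chromosome 8 the Hoxa libraries were above all others at 12.3% of broad peaks and 9.86% of all autosomal peaks. They were below all others at 5.30% and 5.52%.

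All 11 were weaker than the median broad peak. Their mean level was between 14.1 and 93.4 CPM, with a median of 37.6 CPM against 123 CPM over all broad peaks. The median width was 2399 bp, near that of all broad peaks. Of the genes in the lists described above, none was among the 11.

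Without the fold change minimum more broad peaks passed the adjusted p. In the Hoxa contrast 350 did (16.1%), where 9.26% of all tested peaks did, 202 higher against a background of 4.98% and 148 lower against 4.28%. In the Wnt6 contrast 45 did (2.07%), where 0.452% did (0.25% higher and 0.202% lower), and in the Hmx1 contrast 163 (7.51%), where 1.53% did (0.627% higher and 0.901% lower). The median standard error of the log2 fold change in the Hoxa contrast was 0.08 over broad peaks and 0.22 over all tested peaks. Of the 148 lower in the Hoxa deletion, 106 were on chromosome 8, where the median over all peaks was lower too. On chromosome 8 also lay 20 of the 45 in the Wnt6 contrast and 66 of the 163 in the Hmx1 contrast, all higher. This leaves 25 (1.22%) and 97 (4.72%) elsewhere, where 0.307% and 1.14% of all tested peaks passed. In the Hoxa contrast outside chromosome 8, 202 passed higher (9.83%) and 42 lower (2.04%), where 5.38% and 1.28% of all tested peaks did. The 202 higher had a median log2 fold change of 0.41 and a median level of 58.3 CPM, against 122 CPM for all broad peaks outside chromosome 8. The 42 lower had -0.29 and 92.9 CPM. In the Hmx1 deletion 90 passed lower (4.38%), where 0.974% of all tested peaks outside chromosome 8 did, and they had -0.48 and 51.8 CPM. The broad peaks that passed were thus weaker than the rest in these groups.

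The order of the deletions was not even among broad peaks that differed. The F test without a fold change minimum was passed by 7.02% of all tested peaks. Outside chromosome 8 it was passed by 238 broad peaks (11.6%) and 4.92% of all tested peaks. In 152 of them (63.9%) the mean was highest in the Hoxa deletion and lowest in the Hmx1 deletion, the order of Klhl42 and Bbc3. The order Hoxa, Hmx1, Wnt6, as at Tenm4, was seen in 40 (16.8%), and the other 4 orders in between 1 and 17 each. Over all 3385 tested peaks outside chromosome 8 that passed, the shares of these 2 orders were 55.3% and 25.4%, so the first was the most frequent there too.

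By list, the broad peaks of these genes are given by their counts past the adjusted p, beside 9.26% of all tested peaks in the Hoxa contrast, and none was called. Those named here as passing were named after their values were seen. Among homeobox genes outside the Hox clusters, 0 of 41 broad peaks passed the adjusted p higher in the Hoxa deletion and 5 lower (12.2% in all), of which Irx3, Irx5, Irx6 and Pou4f2 are on chromosome 8 and Lhx9 on chromosome 1 had a log2 fold change of -0.34. Of 69 broad peaks of other developmental transcription factors, 6 passed higher and 1 lower (10.1%). Foxa3, a factor of liver, and Zic5, of the neural crest, were the furthest, with log2 fold changes of 0.68 and 0.63 in the Hoxa contrast. Of 83 broad peaks of neuronal genes, 0 passed higher and 4 lower (4.82%), and 2 of the 4 are on chromosome 8. Of 46 broad peaks of signaling genes outside the stretches, 1 passed higher, at Ntn1, and 2 lower (6.52%), both on chromosome 8, and of 18 of imprinted genes 0 passed in any of the 3 contrasts. The median log2 fold changes of these lists in the Hoxa contrast were between -0.03 and 0.01, against 0.000823 over all tested peaks.

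Chromosome 8 stood apart as a whole. It held 116 broad peaks. The median level of these over that of the other 2055 broad peaks was 1.01, 0.997 and 0.977 in replicates 1 to 3 of the Hoxa deletion, 1.51 and 1.44 in the Wnt6 deletion, and 1.49 and 1.47 in the Hmx1 deletion. The Hoxa libraries were thus near 1 and the other 4 near 1.5, with no overlap. On chromosome 8, lower in the Hoxa contrast thus means lower than libraries near 1.5, and the cause was not tested. On the log2 scale the ratio was -0.01 ± 0.02 (SD, n = 3), 0.56 ± 0.04 (SD, n = 2) and 0.56 ± 0.01 (SD, n = 2). Chromosome 8 was singled out among the autosomes by these same values, so this is a description and no p-value is given. In the Hoxa contrast the median log2 fold change was -0.55 on chromosome 8 and between -0.03 and 0.02 on the other 18 autosomes. In the Wnt6 and Hmx1 contrasts, which hold the Hoxa libraries among the controls, it was 0.23 and 0.32 on chromosome 8.

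The difference ran along the whole chromosome. The median log2 fold change in the Hoxa contrast was -0.56 over the 38 broad peaks up to position 62953057, -0.54 over the next 39 and -0.54 over the last 39, from position 95676749 on. In 108 of 116 (93.1%) every Hoxa library was below every other library, against 53.6% of all 5580 peaks of the chromosome and 5.30% of the broad peaks elsewhere. The size of the shift was alike in both: the median log2 difference of the Hoxa deletion was -0.53 from Wnt6 and -0.60 from Hmx1 over the broad peaks, and -0.57 and -0.58 over all peaks of the chromosome. The median log2 difference of the Hmx1 from the Wnt6 deletion was 0.05 over these broad peaks and -0.007 over all peaks of the chromosome. The strong peaks at Trim67, a neuronal ubiquitin ligase, and Rasd2, a small GTPase of the striatum, followed it: Trim67 had 337, 315 and 337 CPM in the Hoxa deletion, 505 and 428 in the Wnt6 deletion, and 497 and 502 in the Hmx1 deletion. The peak over Fbxl8 and Hsf4, a heat shock factor of the lens, had 332, 312 and 327 CPM, then 481 and 399, then 452 and 451. Irs2 had 134, 127 and 145 CPM, then 189 and 165, then 181 and 174. The 2 broad peaks of the chromosome with a log2 fold change over 0 in the Hoxa contrast, named after their values were seen, were Wwc2 (0.03) and Adad2 (0.10). Wwc2 had 43.7, 44.1 and 46.4 CPM in the Hoxa deletion and 40.6 to 48.6 in the other libraries.

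**Figure D5:**
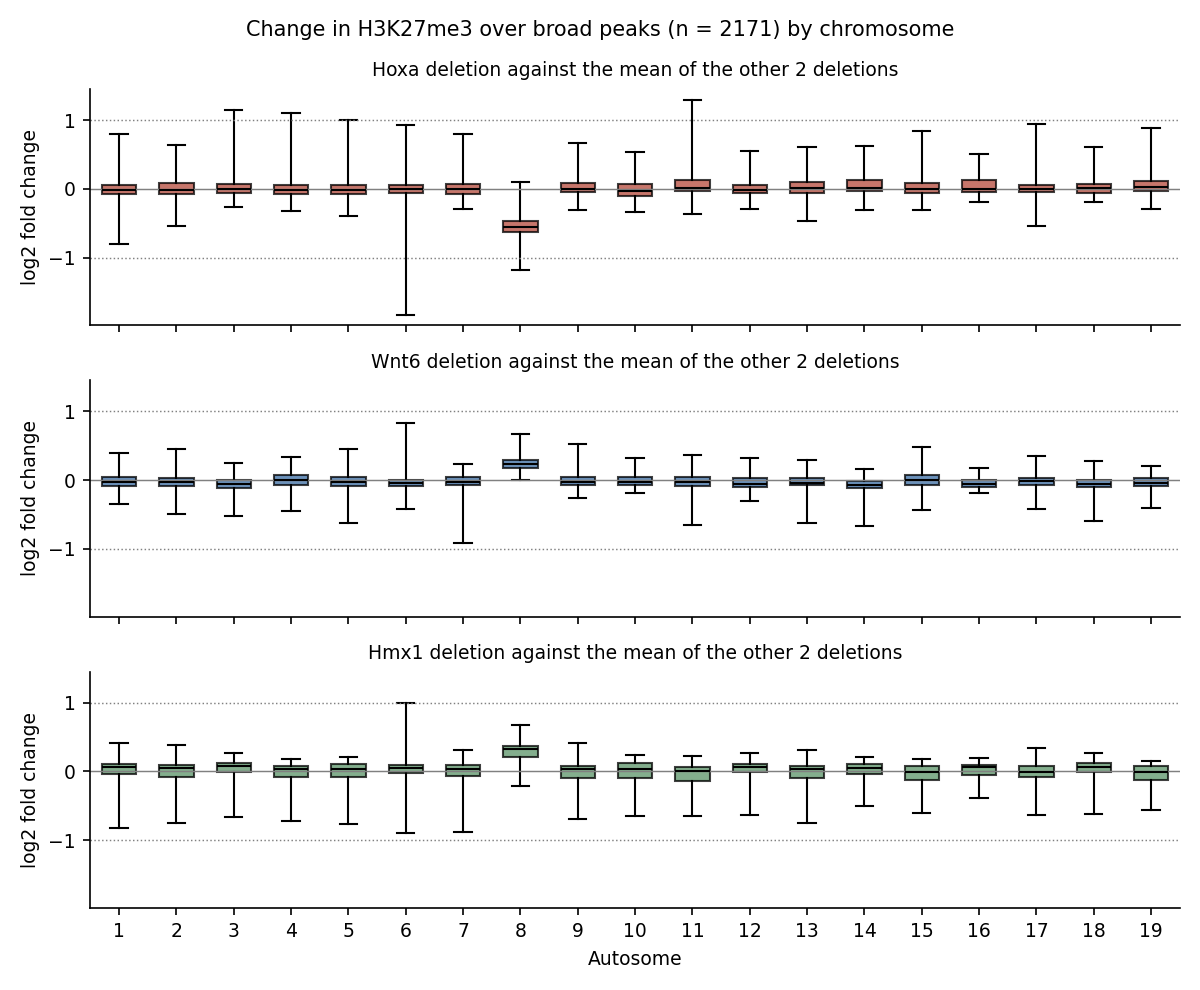
Log2 fold change of each deletion against the mean of the other 2 (y axis) for 2171 broad peaks by autosome (x axis); boxes give the quartiles and median, whiskers the lowest and highest value, and dotted lines the fold change minimum. Chromosome 8 has a median of -0.55 in the Hoxa contrast and the other autosomes have medians between -0.03 and 0.02.

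On the deleted chromosomes no change passed the test at the nearest broad peaks. The nearest to the Hoxa stretch was Evx1, at 39.0 kb, with 331, 312 and 304 CPM in the Hoxa deletion, 306 and 289 in the Wnt6 deletion, and 296 and 328 in the Hmx1 deletion. In the Hoxa contrast it differed by 0.05 on the log2 scale. Creb5 and Tril followed at 1012 and 1543 kb with log2 fold changes of -0.03 and 0.01. The nearest to the Wnt6 stretch was Ihh, at 46.6 kb, with 373 and 342 CPM in the Wnt6 deletion, 350.3, 321 and 316 in the Hoxa deletion, and 342 and 347 in the Hmx1 deletion. In the Wnt6 contrast the log2 fold change was 0.09 at Ihh, 0.06 at Des, of a muscle filament, and -0.02 at Speg, of a muscle kinase. The nearest to the Hmx1 stretch was Adra2c, at 101 kb, with a log2 fold change of 0.18 in the Hmx1 contrast, and Htra3 and Dok7 had 0.14 and 0.08. None of these 9 passed the adjusted p in the contrast of the deletion beside it. The libraries of that deletion overlapped with the others at 8 of them, and at Adra2c both Hmx1 libraries were above all others.

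Vax2, Pax3, Nkx1-1 and Msx1 are genes that the study treats as contacts of the deleted anchors. Nkx1-1, a homeobox gene, had a broad peak with 196 to 223 CPM over the libraries and a log2 fold change of 0.06 in the Hmx1 contrast. The broad peak nearest Msx1, at a distance of 68566 bp, had 37.8 to 52.4 CPM and a log2 fold change of 0.03. Vax2 and Pax3 had no broad peak within 100 kb that met the rule. Over whole chromosomes, 1 of 118 broad peaks on chromosome 6 was called in the Hoxa contrast (Nod1), where 1.53% of all tested peaks were. On chromosome 1 in the Wnt6 contrast and chromosome 5 in the Hmx1 contrast 0 were called, where 0.0551% and 0.171% were. Without the fold change minimum, 17 of these 118 passed the adjusted p (6 lower), where 9.26% of all tested peaks did. In the Wnt6 contrast 2 passed on chromosome 1 (0 lower), where 0.452% of all tested peaks did. In the Hmx1 contrast 7 passed on chromosome 5 (all 7 lower), where 1.53% did.

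In the Hoxa and Wnt6 stretches lay 3 broad peaks, and in the Hmx1 stretch lay none. Stretches are defined by low levels in these same libraries, so the low values are no independent check of the labels. Hoxa13 had 0, 0.0764 and 0.709 CPM in the Hoxa deletion and 71.8 to 86.3 CPM in the others. Wnt6 had 1.24 and 0.784 CPM in the Wnt6 deletion and 149 to 184 CPM in the others. Cdk5r2, an activator of a neuronal kinase, had 0.617 and 0.549 CPM in the Wnt6 deletion and 164 to 178 CPM in the others. Each was near 0 in the libraries of its own deletion alone.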

How the data were processed

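Samples were grouped by their titles into Hoxa, Wnt6 and Hmx1 deletions, and the 7 IgG control libraries of the series were left aside, with no subtraction of background from H3K27me3. The authors deposited raw counts over a shared list of peaks, without normalization. The submitters' processing notes name Trimmomatic, Bowtie2, SAMtools, Picard, MACS2, deepTools and mm10, with no version. How the list was made from the libraries, whether duplicates were removed, and whether a start counts from 0 or 1 are not given in the sources used here. Peaks called on some libraries alone would favor those libraries.

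Gene bodies, promoters and microRNAs came from RefSeq tables of GRCm38.p6. Counts were fitted in R 4.3.3 with edgeR 4.0.16 (TMM factors, filterByExpr by genotype, which removed 17 peaks, glmQLFit and glmQLFTest) on the whole table, with 1 term per genotype, since pooling the other deletions would count their differences as spread. Each deletion was set against the mean of the other 2, and an F test asked for any difference. CPM values use TMM factors, log2 CPM a prior count of 2, and ± after a log2 fold change is a standard error. A deleted stretch is the run of peaks under 10% of the level in the other deletions. The level against broad peaks of dense clusters and the share of counts were tested over libraries by exact permutation. Broad peaks, gene lists and tests were chosen with earlier results of these data known. Named peaks are the 10 strongest, the 5 widest, up to 5 called in each direction for each deletion, the 3 with the largest and smallest SD, those nearest the stretches and loop partners, those beside the limits of the rule, and up to 4 genes of each list; others are marked in the text. Peaks called for a deletion were named only where every library of that deletion lay beyond every other library. Alternatives were DESeq2 1.42.0, other normalizations, filters, widths and gaps, downsampled counts, a replicate block and each library left out. In simulated counts over 74458 peaks, 200 broad peaks were changed by 2 on the log2 scale at a dispersion of 0.02. Of these, edgeR recovered 100% in each contrast, with 0 to 2 calls among unchanged peaks. This setting does not measure recovery of changes near the minimum of 1. Library totals ranged from 6016500 to 36563541 counts. PCR copies are not independent molecules, so counting error is a lower limit of the error.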

Additional observations from a re-analysis of the deposited data

How the results depend on the processing

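Without a fold change minimum the broad peaks passing the adjusted p were 350 in the Hoxa, 45 in the Wnt6 and 163 in the Hmx1 contrast, and 344 in the F test. In the Hmx1 contrast, with 0 calls, 1 broad peak was called with chromosome medians removed, 1 without chromosome 8 and 2 in downsampled counts, and between 0 and 2 with a library left out. The F test called 21 in downsampled counts and between 11 and 19 with a library left out. In the Hoxa contrast all alternatives with the minimum gave between 4 and 9 calls, and in the Wnt6 contrast 0. A width minimum of 1500 bp gave 4602 broad peaks and one of 3000 bp gave 373, whose median was 57.8 CPM per kb. With the replicate number as a block, the calls were 9 in the Hoxa, 0 in the Wnt6 and 1 in the Hmx1 contrast, and 13 in the F test. Deviations of libraries with the same number correlated between -0.04 and 0.08 over all tested peaks, most of them weak. This cannot settle whether the numbers pair the libraries, and replicate 1 had the lowest total in each deletion. The cause of these shifts in the calls was not tested.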
